A study of Homo sapiens with 36 samples.

Results

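The 6 libraries described here come from MDA-MB-231 cells, an established human line of triple negative breast cancer, that were treated for 24 h with 10 nM carfilzomib (3 libraries) or with the vehicle DMSO alone (3 libraries). They were taken by their labels from a series of 36 libraries, and every gene of the deposited count table was compared between the 2 groups. All drugs were added from stocks in DMSO, so each group received DMSO. The same table holds 3 libraries of cells given 10 µM SHP1705 and 3 of cells given SHP1705 with carfilzomib at the same doses for 24 h; SHP1705 is a small molecule that stabilizes cryptochrome, a repressor of the circadian clock. One cell line was used, and the labels number the replicates without stating whether a number marks a separate culture or day, so p-values measure only the spread between these libraries.

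The proteasome is the barrel-shaped protease that breaks down ubiquitin-tagged proteins in the cytosol and the nucleus. Its core particle is built of alpha and beta subunits, of which PSMB5, PSMB2 and PSMB1 are beta subunits, and its regulatory particle carries the PSMC ATPases and the PSMD subunits that unfold and feed in the substrate. Carfilzomib binds irreversibly to the active site of PSMB5. In many cell types the loss of proteasome activity is answered by the transcription factor NRF1 (gene NFE2L1), which is pulled from the endoplasmic reticulum by the VCP segregase, deglycosylated by NGLY1 and cut by DDI2, and which then raises proteasome genes. Damaged proteins also engage heat shock factors, which raise chaperones, the NRF2 factor (gene NFE2L2), which raises genes of glutathione and NADPH supply, and ATF4, which raises genes of amino acid supply.

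The promoters of several genes that rose are shown because NRF1 and NRF2 are known to bind antioxidant response elements, and heat shock factors are known to bind heat shock elements. The RefSeq promoter table (build GRCh38.p14) holds 28 of the 33 proteasome subunit genes listed here, and the 250 bases before each start site were searched on both strands. In each line the capitals mark the match, read in the direction of the gene's transcript, first for the letters TGACNNNGC of the antioxidant response element and then, for HSPA6 and HSP90AA1, for the letters GAANNTTCNNGAA of the heat shock element (or their reverse complements).
PSMB3: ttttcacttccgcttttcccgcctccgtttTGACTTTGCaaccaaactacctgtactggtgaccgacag
PSMD3: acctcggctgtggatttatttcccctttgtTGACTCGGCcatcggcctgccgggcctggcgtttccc
PSMD12: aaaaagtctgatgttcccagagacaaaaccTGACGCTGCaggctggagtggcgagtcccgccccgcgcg
GCLM: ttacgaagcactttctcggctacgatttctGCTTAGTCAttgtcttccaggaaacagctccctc
ME1: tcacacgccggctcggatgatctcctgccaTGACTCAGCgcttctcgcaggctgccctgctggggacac
HSPA6: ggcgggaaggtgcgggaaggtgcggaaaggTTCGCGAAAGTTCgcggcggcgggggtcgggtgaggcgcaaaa
HSP90AA1: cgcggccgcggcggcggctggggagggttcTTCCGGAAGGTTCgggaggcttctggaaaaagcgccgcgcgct
The windows lie at chr17:38752607-38752675 for PSMB3 (plus strand), chr17:39980740-39980806 for PSMD3 (plus strand), chr17:67366704-67366772 for PSMD12 (minus strand), chr1:93909431-93909494 for GCLM (minus strand), chr6:83431150-83431218 for ME1 (minus strand), chr1:161524436-161524508 for HSPA6 (plus strand) and chr14:102087090-102087162 for HSP90AA1 (minus strand). The antioxidant letters were present for 7 of the 28 proteasome genes (25%), which were PSMA4, PSMB3, PSMC5, PSMD3, PSMD12, ADRM1 and SEM1, for 6 of 21 NRF2 genes (28.6%), for 13.2% of all 27305 genes in the promoter table and for 15.9% of the 11558 tested genes in it. Other lists had shares above that of the proteasome genes, such as 26.1% for the ATF4 list, 38.5% for the E-box clock genes, 43.8% for the ubiquitin list, 50% for proteasome assembly and 54.5% for the lysosome list. Genes that fell, among them PSME1, PSME2, UBB, BAX and TK1, also had the letters, so they are not particular to genes that rose. The heat shock letters were present for 7 of 25 cytosolic heat shock genes (28%), against 0.557% of all genes and 0 of the 28 proteasome genes. These are matches of letters in the reference and no measure of binding.

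Library totals ran from 18864725 counts (DMSO replicate 3) to 34008423 counts (carfilzomib replicate 2) over the 6 libraries, and 16183 genes passed the filter on low counts. The markers of the labelled line were present: VIM, CD44, EGFR, AXL, FOSL1, CAV1, PLAU and MSN summed to between 4968 and 5166 CPM (counts scaled to a common library total) in every library. Of the luminal and receptor genes expected low, PGR had 0 counts, ESR1 at most 3 counts and FOXA1 at most 3 counts in any library. The others of that list were detected, with GATA3 at 12.9 to 17.1 CPM, EPCAM at 14.9 to 18.4 CPM and CDH1 at 0.999 to 1.92 CPM. Of the markers of other cell types, CD3E, HBB, DCN, APOA2 and TTR had 0 counts in all 6 libraries, and the blood list summed to 2.71 to 5.24 CPM under DMSO and 1.93 to 5.38 CPM under carfilzomib. Not all such markers were absent: the fibroblast list summed to 18.4 to 19.1 CPM under DMSO and 17.3 to 24.4 CPM under carfilzomib. In it COL1A1 was at 6.18 to 9.59 CPM, PDGFRB at 6.04 to 9.13 CPM and COL1A2 at 3.1 to 5.16 CPM over the 6 libraries. The liver marker SERPINA1, at 25.5 to 42.5 CPM over the 6 libraries, was the only called member of the lists for other cell types (-0.45 ± 0.12), and its call was lost without DMSO replicate 2. Of the line's own markers, MSN rose and VIM, AXL, FOSL1 and PLAU fell, with the call of FOSL1 lost after the correction for GC content described below (adjusted p = 0.0538). The 3 carfilzomib libraries varied more among themselves than the DMSO libraries did, with 5.66% to 7.38% of genes over 1.25-fold away from the mean of the other libraries of the group, against 2.02% to 2.81%. In the other carfilzomib table, of 8 h, the levels of HSPA1A go against the labels, as given at the end.

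Carfilzomib changed 3472 of the 16183 genes (21.5%) at an adjusted p under 0.05 (edgeR, quasi-likelihood test, p-values adjusted by the Benjamini-Hochberg method), of which 1631 were higher (10.1%) and 1841 lower (11.4%). Most changes were small: the median size among the called genes was 0.32 on the log2 scale, and 205 genes changed at least 2-fold, 154 higher and 51 lower. The 3 libraries of one group lay above all 3 of the other for 34.3% of the genes tested, and this share is the background for statements below that groups did not overlap. Values per library are CPM, fold changes are log2 of carfilzomib over DMSO with their standard errors, and CPM is a share of each library's RNA, so fewer transcripts per cell and fewer cells that hold them cannot be told apart. The fold changes followed the base composition of the transcripts, with a Spearman correlation with GC content of -0.35 across 15027 genes, which are not independent replicates. A second fit with this trend taken out was chosen after seeing the data and is called the GC-corrected fit here. It is given beside some of the results that it changed, so a count printed without it may also have moved.

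All 33 subunits of the core and regulatory particles rose, each with 3 carfilzomib libraries above the 3 DMSO libraries. Their log2 fold changes ran from 0.41 for PSMD7 to 1.31 for PSMC4, with a median of 0.80 against a median of 0.0011 over all genes tested. Summed over the 33 genes, the subunits held 7310, 6968 and 7327 CPM under DMSO and 12500, 12590 and 11920 CPM under carfilzomib, so the proteasome's share of the RNA was higher in each treated library. The largest adjusted p among them was 7.42e-06, and all 33 remained higher in the GC-corrected fit (medians 0.73 for the core and 0.76 for the regulatory subunits).

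In the core particle, PSMB5, the subunit that carfilzomib binds, was at 124, 121 and 118 CPM under DMSO and 182, 198 and 183 CPM under carfilzomib (log2 fold change 0.63 ± 0.048, adjusted p = 1.12e-09). The treated libraries were all above the controls, and PSMB5 sat near the low end of the core subunits, whose range was 0.52 (PSMA7) to 1.10 (PSMB3). PSMB2, a beta subunit with no catalytic site of its own, stood at 217, 213 and 214 CPM under DMSO and 434, 437 and 443 CPM under carfilzomib (log2 fold change 1.03 ± 0.041, adjusted p = 3.05e-14). PSMB1, a further beta subunit without an active site, was at 209.7, 213 and 211 CPM under DMSO and 359, 364 and 403 CPM under carfilzomib (log2 fold change 0.83 ± 0.05, adjusted p = 2.52e-11). The alpha subunits, which form the gated outer rings, rose by 0.52 (PSMA7) to 0.84 (PSMA5). PSMB3, which has the antioxidant letters shown above, had the widest spread of the core, with 358, 237 and 364 CPM under DMSO and 752, 711 and 594 CPM under carfilzomib (1.10 ± 0.1).

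In the regulatory particle, the ATPase PSMC4 had the largest change of any subunit, from 189, 187 and 199 CPM under DMSO to 488, 499.6 and 432 CPM under carfilzomib (log2 fold change 1.31 ± 0.05, adjusted p = 2.6e-14). The non-ATPase subunit PSMD13 followed, at 170.5, 171 and 181 against 379, 368 and 402 CPM (1.14 ± 0.046). The 6 ATPases did not move as 1 block: PSMC3 rose by 0.49 ± 0.045, PSMC5 by 0.78 ± 0.042, PSMC1 by 0.86 ± 0.06, PSMC6 by 0.93 ± 0.057 and PSMC2 by 0.96 ± 0.044. PSMD3, a scaffold subunit of the lid, was at 301, 289.5 and 300.1 CPM under DMSO and 594, 612 and 524 CPM under carfilzomib. PSMD12, also of the lid, was at 155, 148 and 155 CPM under DMSO and 242, 248 and 249 CPM under carfilzomib (0.69 ± 0.044). PSMD1, the large scaffold of the base, was at 145, 144 and 149 CPM under DMSO and 258, 271 and 276 CPM under carfilzomib (0.88 ± 0.046). The smallest change was that of PSMD7, partner of the deubiquitinase PSMD14, with 82.5, 80.05 and 84.9 CPM under DMSO and 105, 108 and 115 CPM under carfilzomib (log2 fold change 0.41 ± 0.054, adjusted p = 7.42e-06), while PSMD14 itself rose by 0.93 ± 0.054.

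**Figure D1:**
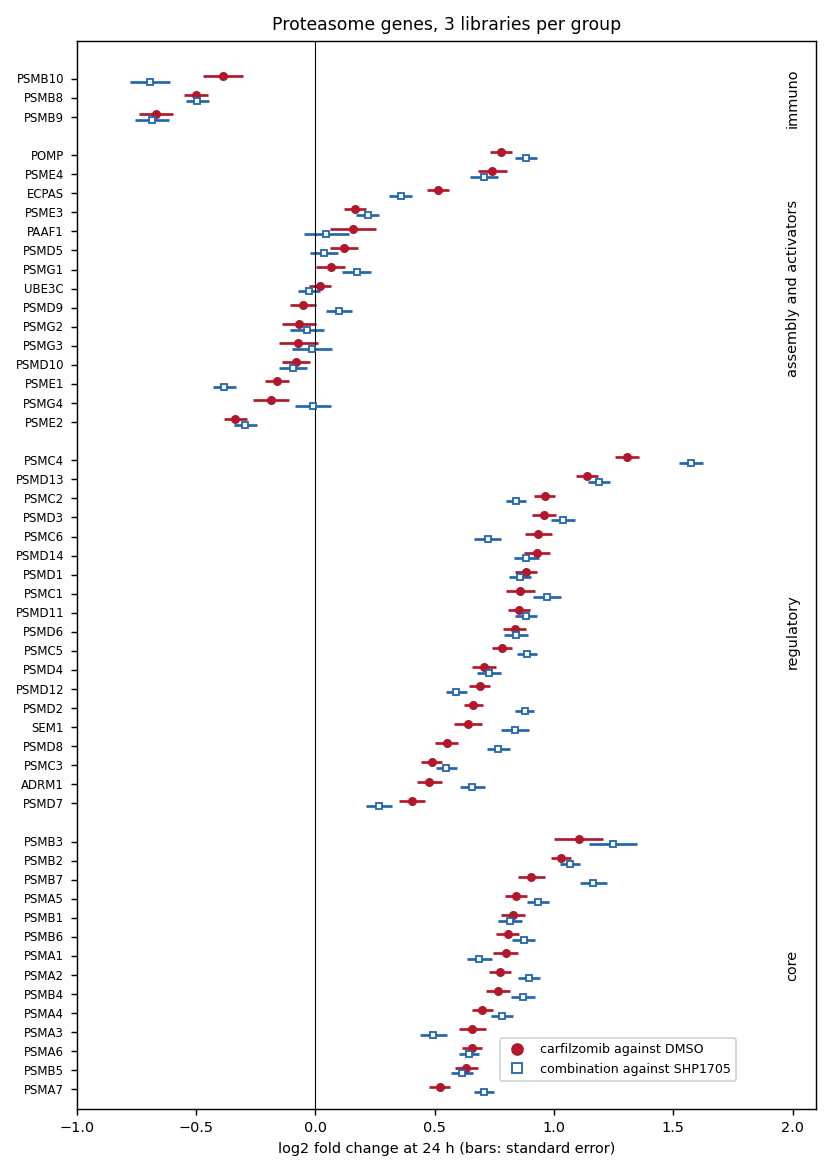
Log2 fold changes with standard errors (horizontal axis) of the proteasome genes (vertical axis) at 24 h, with carfilzomib against DMSO as filled circles and the combination against SHP1705 as open squares, 3 libraries a group. All 33 core and regulatory subunits lie right of 0 in both comparisons, while PSMB8, PSMB9 and PSMB10 of the immunoproteasome lie left of 0.

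Among 15 assembly factors and activators, 4 rose and 2 fell, with a median of 0.021. POMP, the maturation factor of the core particle, was at 154, 148 and 151 CPM under DMSO and 250.3, 259 and 270.4 CPM under carfilzomib (log2 fold change 0.78 ± 0.047, adjusted p = 2.52e-11). PSME4, the activator also known as PA200, was at 80.4, 83.3 and 86.7 CPM under DMSO and 133, 134 and 152 CPM under carfilzomib (0.74 ± 0.06), and ECPAS, a scaffold that binds the regulatory particle, rose by 0.51 ± 0.047. PSME3 rose by 0.17 ± 0.047 (adjusted p = 0.0134), a call lost without DMSO replicate 1, DMSO replicate 2 or carfilzomib replicate 1. The dedicated chaperones showed small values that did not pass the test: PSMG1 was at 0.064, PSMG2 at -0.069, PSMD9 at -0.052 and PSMD10 at -0.081. The genes that fell were PSME1 (-0.16 ± 0.05) and PSME2 (-0.33 ± 0.05, adjusted p = 3.24e-05), which form the interferon-inducible activator PA28. The call of PSME1 was lost in the GC-corrected fit (-0.11, adjusted p = 0.121), with only the 6 libraries and without any 1 of 4 single libraries, whereas that of PSME2 remained in each of these fits.

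The interferon-inducible counterparts of the core subunits went the opposite way. PSMB9 stood at 362, 347 and 354 CPM under DMSO and 250.3, 226 and 193 CPM under carfilzomib (log2 fold change -0.67 ± 0.07, adjusted p = 2.78e-07). PSMB8, which takes the place of PSMB5 in the immunoproteasome, was at 441, 426 and 471 CPM under DMSO and 316, 334 and 296 CPM under carfilzomib (log2 fold change -0.50 ± 0.049, adjusted p = 8.53e-08). PSMB10 had 31.8, 36.3 and 34.4 CPM under DMSO and 26.6, 26.8 and 24.96 CPM under carfilzomib (-0.39 ± 0.085). The groups overlapped in none of the 3 genes, so that within the same libraries the constitutive catalytic subunits were higher and the inducible ones lower. In the whole list of 12 immunoproteasome and antigen presentation genes, 7 fell and 0 rose, with a median of -0.20. Others that fell included TAP1 (-0.22 ± 0.043), which carries peptides into the endoplasmic reticulum, its partner TAPBP (-0.36 ± 0.059) and HLA-B (-0.19 ± 0.043). HLA-C had a value of 0.062 that did not pass the test. In the GC-corrected fit 8 members were lower and 1 was higher, and HLA-B lost its call (-0.072, adjusted p = 0.137).

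Ubiquitin genes and the VCP segregase differed among themselves. Of 20 tested members, 11 rose and 2 fell, with a median of 0.19. VCP, the ATPase that extracts ubiquitin-tagged proteins from membranes and complexes, was at 548, 538 and 568 CPM under DMSO and 964, 984 and 951 CPM under carfilzomib (log2 fold change 0.81 ± 0.039, adjusted p = 5.44e-13). Its cofactor UFD1 was at 77.7, 75.1 and 75.4 CPM under DMSO and 148, 158 and 141 CPM under carfilzomib (0.97 ± 0.054), and the partner cofactor NPLOC4 rose by 0.37 ± 0.045. Each VCP library under carfilzomib lay far above each control library. Of the shuttling and proteasome-bound factors, the ubiquilin UBQLN1 rose by 0.68 ± 0.05, the deubiquitinase USP14 by 0.74 ± 0.063, ZFAND2A, known as the arsenite-inducible proteasome partner AIRAP, by 0.75 ± 0.074, UBXN4 by 0.55 ± 0.062 and RAD23B by 0.35 ± 0.044. The polyubiquitin gene UBB fell, with 1607, 1524 and 1638 CPM under DMSO and 1218, 1190 and 1022 CPM under carfilzomib (log2 fold change -0.48 ± 0.056, adjusted p = 1.48e-06). STUB1, a ubiquitin ligase that works with HSP70, fell by 0.41 ± 0.065.

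For NRF1 itself, NFE2L1 stood at 304, 312 and 309 CPM under DMSO and 287, 292 and 279 CPM under carfilzomib. The treated libraries were slightly below the controls without overlap, and the difference did not pass the test (log2 fold change -0.11 ± 0.046, adjusted p = 0.0942). Of the 10 tested genes of NRF1 and its processing, 3 rose, which were VCP, NGLY1 (0.29 ± 0.068, adjusted p = 0.00306) and MAFG, the small MAF partner of NRF1 and NRF2 (0.21 ± 0.054), and SYVN1 fell by 0.16 ± 0.058. The calls of NGLY1 and SYVN1 were lost in the GC-corrected fit (0.16, adjusted p = 0.0751, and -0.078, adjusted p = 0.29), and that of SYVN1 also without any 1 of 5 single libraries. The protease DDI2 was at 0.094 ± 0.084 and did not pass the test.

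Cytosolic chaperones moved in both directions. Of 27 tested heat shock genes, 9 rose and 4 fell, with a median of 0.058. HSPA6, a strictly inducible HSP70, was at 1.91, 1.79 and 1.87 CPM under DMSO and 12.7, 10.7 and 9.66 CPM under carfilzomib (log2 fold change 2.57 ± 0.17, adjusted p = 1.31e-10). HSPB8, a small heat shock protein of chaperone-assisted autophagy, was at 9.52, 8.82 and 10.2 CPM under DMSO and 28.9, 33.3 and 27.9 CPM under carfilzomib (log2 fold change 1.67 ± 0.1, adjusted p = 4.26e-11). The inducible HSP70 genes HSPA1A and HSPA1B are near-identical copies, so the share of counts given to each is uncertain. HSPA1A stood at 715, 690 and 691 CPM under DMSO and 1126, 1159 and 1046 CPM under carfilzomib (0.67 ± 0.046) and HSPA1B at 1264, 1203 and 1198 CPM under DMSO and 1714, 1791 and 1625 CPM under carfilzomib (0.49 ± 0.043). Both were higher in every treated library. The inducible HSP90 gene HSP90AA1 had 1993, 1982 and 2071 CPM under DMSO and 2942, 2778 and 3177 CPM under carfilzomib (0.56 ± 0.043), and the constitutive HSP90AB1 rose by 0.22 ± 0.034. Smaller rises were those of the HSP110-class genes HSPA4 (0.21 ± 0.047) and HSPA4L (0.27 ± 0.067) and of the HSP90 activator AHSA1 (0.17 ± 0.046). HSPA4L lost its call in the GC-corrected fit (0.15, adjusted p = 0.0893) and AHSA1 without DMSO replicate 2.

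The constitutive HSP70 gene HSPA8 fell, with 1617, 1629 and 1639 CPM under DMSO and 1244, 1297 and 1482 CPM under carfilzomib (log2 fold change -0.28 ± 0.049, adjusted p = 0.000203). Also lower were SERPINH1, the collagen chaperone (-0.22 ± 0.04), BAG1 (-0.23 ± 0.078) and DNAJB1, the main HSP40 partner of inducible HSP70 (290, 284 and 286 against 272, 258 and 244 CPM, log2 fold change -0.15 ± 0.044, adjusted p = 0.0156). DNAJB1 lost its call with only the 6 libraries of this comparison or without DMSO replicate 1, and BAG1 without any 1 of 5 single libraries, the exception being carfilzomib replicate 2. Other classical heat shock genes gave values that did not pass the test, among them BAG3 (0.058), DNAJA1 (-0.11) and HSPB1 (-0.041). The value of HSPB1 changed sign in the GC-corrected fit and was called higher there (0.15, adjusted p = 0.00443). In the cytosolic heat shock list, 7 genes had the heat shock letters in the window. Of these, HSPA6, HSP90AA1 and HSP90AB1 rose, HSPA8 and SERPINH1 fell, and CHORDC1 and DNAJB6 were not called. In the other lists HSPD1, which rose, and GAS5, which was not called, also had the letters. Of 8 subunits of the cytosolic chaperonin TRiC, 5 rose and 0 fell, with a median of 0.16. The largest was CCT3, at 420.5, 403 and 412 CPM under DMSO and 528, 502 and 508 CPM under carfilzomib (log2 fold change 0.31 ± 0.043, adjusted p = 1.18e-05), and 3 were called without DMSO replicate 2. Among 12 mitochondrial chaperones and proteases HSPA9, the mitochondrial HSP70, rose by 0.42 ± 0.043 (adjusted p = 2.03e-07), while HSPD1 (0.15 ± 0.044) and TRAP1 (-0.20 ± 0.066) passed the test but not in the GC-corrected fit. The lower count of the cytosolic list was 2 without DMSO replicate 1.

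The list of NRF2 and oxidative stress genes had 17 of 28 members higher and 3 lower, with a median of 0.29. The aldo-keto reductase AKR1B10 had the largest fold change among the genes above 5 CPM on average with separate groups, at 1.09, 0.916 and 1.18 CPM under DMSO and 21.3, 22.5 and 23.8 CPM under carfilzomib (log2 fold change 4.41 ± 0.13, adjusted p = 3.25e-16). It was near 1 CPM in each control library and over 20 CPM in each treated one. BLVRB, a biliverdin and flavin reductase, was at 62.4, 62.4 and 62.7 CPM under DMSO and 148, 146 and 129 CPM under carfilzomib (log2 fold change 1.18 ± 0.055, adjusted p = 3.41e-13). ME1, the cytosolic malic enzyme that yields NADPH, was at 18.7, 18.9 and 20.8 CPM under DMSO and 42.6, 39.6 and 48.3 CPM under carfilzomib (1.16 ± 0.089). GCLM, the modifier subunit of the first enzyme of glutathione synthesis, was at 59.3, 63.4 and 60.8 CPM under DMSO and 105, 96.9 and 128 CPM under carfilzomib (0.84 ± 0.074). In all of these genes the lowest treated library was above the highest control. GSR, which regenerates glutathione, rose by 0.80 ± 0.061, SRXN1, which repairs peroxiredoxins, by 0.61 ± 0.059, TALDO1 of the pentose phosphate pathway by 0.63 ± 0.041 and PRDX1 by 0.41 ± 0.067. HMOX1, the heme oxygenase, was at 12.3, 10.9 and 9.03 CPM under DMSO and 16.3, 16.3 and 17.5 CPM under carfilzomib (log2 fold change 0.63 ± 0.11, adjusted p = 0.000154).

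Not all members of the NRF2 list went up. NQO1, a widely used NRF2 marker, fell, with 227, 214 and 226 CPM under DMSO and 169, 162 and 191 CPM under carfilzomib (log2 fold change -0.35 ± 0.057, adjusted p = 7.95e-05). TKT, an enzyme of the pentose phosphate pathway, fell by 0.15 ± 0.038 and was not called in the GC-corrected fit (-0.071, adjusted p = 0.147). Abundant members with values that did not pass the test were TXNRD1, the thioredoxin reductase (647, 632 and 655 against 648, 664 and 696 CPM, 0.055 ± 0.041), and GCLC, the catalytic partner of GCLM (0.16 ± 0.086, adjusted p = 0.199). NFE2L2 stood at 89.5, 89.5 and 90.3 CPM under DMSO and 90.1, 92.4 and 102 CPM under carfilzomib, with overlapping groups (log2 fold change 0.08 ± 0.053, adjusted p = 0.319). The metallothioneins, which NRF2, zinc and cadmium can raise, showed no call: MT2A was at 330.2, 361 and 328 CPM under DMSO and 305, 320.1 and 350 CPM under carfilzomib (-0.065 ± 0.064) and MT1X at 0.079 ± 0.096. One of the 7 tested members of that list rose, MTF1, the zinc-sensing factor (0.27 ± 0.08), a call lost without DMSO replicate 2 or 3.

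**Figure D2:**
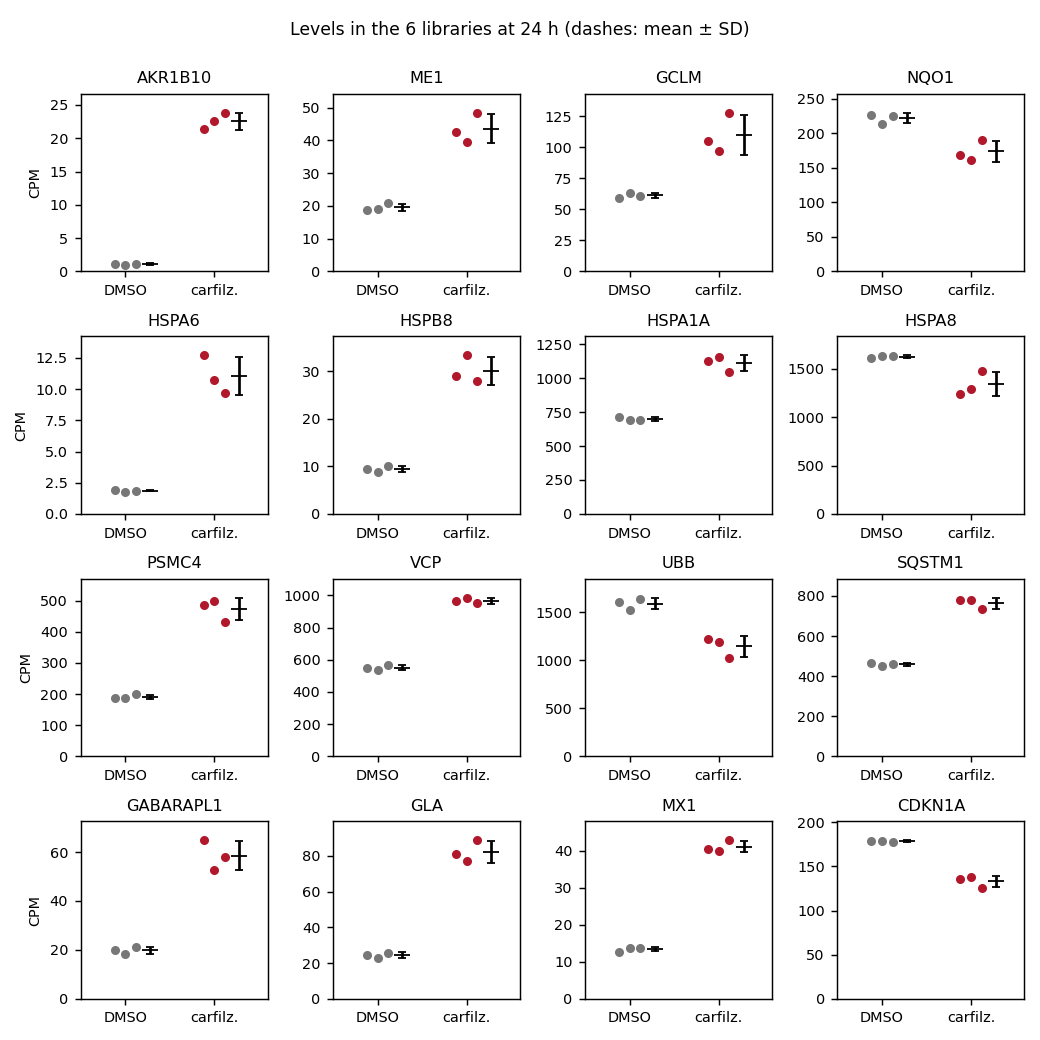
CPM (vertical axes, from 0) of 16 genes in the 3 DMSO and 3 carfilzomib libraries at 24 h, with points for libraries and dashes for mean ± SD. NQO1, HSPA8, UBB and CDKN1A are lower in every treated library, and the other 12 genes are higher in every treated library.

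Several receptors of selective autophagy were higher. Of 20 autophagy genes, 7 rose and 0 fell, with a median of 0.12. GABARAPL1, a member of the ATG8 family that coats the autophagosome, was at 19.9, 18.4 and 21.3 CPM under DMSO and 64.8, 52.7 and 58.2 CPM under carfilzomib (log2 fold change 1.56 ± 0.084, adjusted p = 3.43e-12). SQSTM1, the p62 receptor that carries ubiquitin-tagged cargo, was at 467, 453 and 459.8 CPM under DMSO and 779, 779 and 733 CPM under carfilzomib (log2 fold change 0.73 ± 0.04, adjusted p = 5.33e-12). The receptors TAX1BP1 (0.39 ± 0.046) and CALCOCO2 (0.38 ± 0.05) and MAP1LC3B, another ATG8 gene (0.36 ± 0.071), were also higher. In each of these 5 genes the groups did not overlap. Of 20 lysosome genes 6 rose and 1 fell, with a median of 0.049. GLA, the lysosomal alpha-galactosidase on chromosome X, was at 24.7, 22.7 and 25.8 CPM under DMSO and 80.8, 76.9 and 88.6 CPM under carfilzomib (log2 fold change 1.75 ± 0.07, adjusted p = 3.05e-14). CTSL rose by 0.37 ± 0.052, ATP6V1A, a subunit of the proton pump, by 0.45 ± 0.075, and CTSZ fell by 0.32 ± 0.063. The count of higher lysosome genes was 3 without DMSO replicate 2 or carfilzomib replicate 1 and with only the 6 libraries, and the higher call of CTSD (0.13 ± 0.043) was lost under 5 alternatives.

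Genes of the unfolded protein response and of the ATF4 pathway showed no common direction. Of 22 genes of the endoplasmic reticulum, 4 rose and 6 fell, with a median of -0.077. MANF, a secreted factor of the stressed reticulum, was at 118, 113 and 113 CPM under DMSO and 88.2, 93.99 and 87.03 CPM under carfilzomib (log2 fold change -0.35 ± 0.049, adjusted p = 1.41e-05). XBP1, the spliced transcription factor of that response, had 83.1, 82.97 and 81.6 CPM under DMSO and 66.9, 66.6 and 64.6 CPM under carfilzomib (-0.32 ± 0.056). HSPA5, the chaperone BiP, stood at 1146, 1184 and 1191 CPM under DMSO and 1079, 1108 and 1076 CPM under carfilzomib (log2 fold change -0.11 ± 0.038, adjusted p = 0.0407). The lower call of HSPA5 was lost under 5 alternatives, including a fit to the 6 libraries alone. Only 2 lower members were called with no filter on low counts, with only the 6 libraries and without DMSO replicate 2, DMSO replicate 3 or carfilzomib replicate 1, and 2 higher members in the GC-corrected fit or without DMSO replicate 1.

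Of 27 tested genes of the ATF4 response, 4 rose and 5 fell, with a median of -0.11. DDIT3, the factor CHOP, had 16.3, 15.99 and 18.3 CPM under DMSO and 11.2, 16.6 and 14.8 CPM under carfilzomib, with overlapping groups (log2 fold change -0.24 ± 0.12, adjusted p = 0.19). ATF3 was at 7.61, 8.82 and 9.35 CPM under DMSO and 11.04, 9.06 and 10.3 CPM under carfilzomib, also overlapping (log2 fold change 0.23 ± 0.12, adjusted p = 0.189). CHAC1, which degrades glutathione, was at -0.53 ± 0.21 and did not pass the test (adjusted p = 0.082). None of these 3 genes, which acute stress is known to raise strongly, was called at 24 h. CTH, which makes cysteine, rose from 9.93, 11.1 and 11.7 to 16.6, 14.3 and 19.6 CPM (0.62 ± 0.12). PCK2, a mitochondrial enzyme of gluconeogenesis, fell by 0.46 ± 0.093 as did VLDLR (-0.30 ± 0.078). ATF4 itself fell by 0.17 ± 0.046 (adjusted p = 0.00886), which was not called in the GC-corrected fit (-0.08, adjusted p = 0.23), where 3 members were higher and 2 lower. Without carfilzomib replicate 2 the lower count was 9, without carfilzomib replicate 3 it was 3, and without DMSO replicate 1, 2 or 3 the higher count was 1, 2 and 2. Of 12 cytosolic tRNA synthetases 5 rose and 0 fell, among them LARS1 (0.26 ± 0.049) and EPRS1 (0.28 ± 0.055), and 3 were called without DMSO replicate 1.

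Of 26 genes of G2 and mitosis, 11 fell and 0 rose, with 25 values below 0 and a median of -0.15. BIRC5, the survivin of the chromosomal passenger complex, was at 194, 189 and 202 CPM under DMSO and 145, 155 and 143 CPM under carfilzomib (log2 fold change -0.40 ± 0.047, adjusted p = 1.44e-06). UBE2C, the ubiquitin-conjugating enzyme of the anaphase-promoting complex, stood at 201, 183 and 193 CPM under DMSO and 145, 152 and 151 CPM under carfilzomib (-0.36 ± 0.049). TPX2 (-0.20 ± 0.041), AURKB (-0.27 ± 0.06) and TOP2A (-0.18 ± 0.043) were also lower. The count of lower members was 17 in the GC-corrected fit and 7 without DMSO replicate 1 or DMSO replicate 2 or with only the 6 libraries. Of 28 genes of DNA replication, 10 fell and 3 rose, with a median of -0.12. E2F1 (-0.40 ± 0.057), TK1 (-0.43 ± 0.068), MCM5 (-0.30 ± 0.059) and MCM3 (-0.20 ± 0.041) fell, while CCNE1, the cyclin of S phase entry, rose from 16.7, 15.7 and 16.4 to 21.5, 23.4 and 22.1 CPM (0.46 ± 0.095). The higher count of this list was 1 without DMSO replicate 1 or DMSO replicate 2.

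CDKN1A, the p21 inhibitor whose protein the proteasome degrades, was lower at the RNA level, with 179, 179 and 178 CPM under DMSO and 136, 138 and 126 CPM under carfilzomib (log2 fold change -0.43 ± 0.046, adjusted p = 3.89e-07). The list of p53 targets and CDK inhibitors had 4 members higher and 4 lower of 20, with a median of -0.087. CDKN2C (-0.53 ± 0.068) and CDKN2D (-0.39 ± 0.093) fell. PLK2 rose by 0.44 ± 0.043, and the death receptor FAS went from 2.28, 2.08 and 2.35 CPM under DMSO to 4.71, 3.69 and 4.03 CPM under carfilzomib (0.88 ± 0.2). Of 13 tested BCL2 family genes 1 rose, BID (0.29 ± 0.069), which amplifies death receptor signals, and 2 fell, BAX (-0.29 ± 0.075), which opens the outer mitochondrial membrane, and MCL1 (-0.16 ± 0.041), which guards it. In the GC-corrected fit 2 members were higher and 3 lower. MYC, which drives growth, was at 145, 146 and 144 CPM under DMSO and 187, 174 and 153 CPM under carfilzomib (log2 fold change 0.24 ± 0.056, adjusted p = 0.00335). Of 14 histone genes 3 fell, including H1-10, a linker histone whose RNA does not depend on replication, and H2AC18. The call of H1-10 was lost in the GC-corrected fit (-0.045, adjusted p = 0.617) and that of H2AC18 under 6 alternatives, and 1 histone gene was lower in the GC-corrected fit.

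Of 28 ribosomal protein genes measured, 15 fell and 0 rose, all 28 values were below 0 and the median was -0.13, and their summed share was 41100, 39370 and 39730 CPM under DMSO and 35910, 36480 and 36410 CPM under carfilzomib. RPL28 was at 1146, 1108 and 1081 CPM under DMSO and 836, 913 and 885 CPM under carfilzomib (log2 fold change -0.34 ± 0.04, adjusted p = 1.4e-06), and RPL13A, which has many processed copies, at 3575, 2846 and 3162 CPM under DMSO and 2414, 2658 and 2209 CPM under carfilzomib (-0.40 ± 0.064). The groups of both genes were apart. In the GC-corrected fit 12 were lower, with a median of -0.092. Ribosome biogenesis genes went the other way, with 6 of 26 higher and 1 lower and a median of 0.12, led by the processing factor RRP12 (0.38 ± 0.05) and by UTP20 (0.33 ± 0.066), and 3 were higher without DMSO replicate 2. Of 12 small nucleolar RNA host genes 4 fell and 0 rose, with SNHG5 at -0.27 ± 0.057 and SNHG8 at -0.37 ± 0.078. Of 28 nuclear genes of oxidative phosphorylation 7 rose and 1 fell, and the largest rise was that of NDUFA4 (74.9, 69.7 and 70.6 against 106, 114 and 123 CPM, 0.67 ± 0.057), which belongs to cytochrome c oxidase, while the mitochondrially encoded transcripts had 2 of 13 called higher, and 0 in the GC-corrected fit or without DMSO replicate 3 or carfilzomib replicate 1.

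In glycolysis and the hypoxia response, 9 of 27 tested genes fell and 2 rose, with a median of -0.064. PFKL, the liver-type phosphofructokinase, was at 305, 309.6 and 315 CPM under DMSO and 225, 239 and 204 CPM under carfilzomib (log2 fold change -0.48 ± 0.049, adjusted p = 2.31e-07). VEGFA (-0.35 ± 0.047) and the glucose transporter SLC2A1 (-0.31 ± 0.048) fell, while HK1 rose by 0.26 ± 0.041 and GPI by 0.20 ± 0.042. With GC correction 8 members were lower and 4 higher. All 10 fatty acid synthesis genes had values below 0 and 6 passed the test, with a median of -0.23. In the GC-corrected fit 4 of the 10 were lower and the median was -0.097. In the combination against SHP1705, 4 were lower and the median was -0.11. The desaturases FADS2 (93.5, 94.1 and 96.1 against 74.1, 69.7 and 69.4 CPM, -0.41 ± 0.053), FADS1 (-0.27 ± 0.056) and SCD (-0.26 ± 0.055) fell, and SREBF1, their regulator (-0.24 ± 0.064), lost its call in the GC-corrected fit (-0.068, adjusted p = 0.334). Cholesterol synthesis and uptake had 1 of 21 higher and 3 lower, of which LSS (-0.35 ± 0.053) alone remained lower in the GC-corrected fit, where 0 were higher, and without DMSO replicate 1 only 1 was lower. Of 8 aryl hydrocarbon receptor targets 3 fell, which were NQO1, CYP1B1 (-0.19 ± 0.053) and CYP1A1 (-0.54 ± 0.16), and 1 rose, TIPARP, against 0 in the GC-corrected fit. Without DMSO replicate 3 only 1 was lower, and CYP1A1 lost its call under 5 alternatives.

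MX1, an antiviral GTPase that interferon raises, was at 12.8, 13.8 and 13.6 CPM under DMSO and 40.4, 40.1 and 42.9 CPM under carfilzomib (log2 fold change 1.62 ± 0.076, adjusted p = 3.99e-13). The type I interferon list had 3 of 20 higher and 7 lower and a median of -0.057, including OAS3 (-0.44 ± 0.085) and IFIT3 (-0.32 ± 0.063), which fell, and IFI44 (0.38 ± 0.088), which rose. Of 20 tested NF-kB and cytokine genes, IL6 rose from 2.83, 4.29 and 3.10 to 5.95, 7.23 and 5.34 CPM (0.86 ± 0.19) and NFKBIE fell by 0.42 ± 0.064, while 3 members were higher in the GC-corrected fit. NFKBIA, the inhibitor that the proteasome degrades to release NF-kB, was at 0.20 ± 0.076 (adjusted p = 0.0614). Of 19 immediate early and AP-1 genes 2 rose and 7 fell, with DUSP1, a phosphatase of MAP kinases, at 32.4, 28.6 and 30.1 CPM under DMSO and 55.3, 46.05 and 43.7 CPM under carfilzomib (0.67 ± 0.09), DUSP6 at -0.35 ± 0.047, JUND at -0.61 ± 0.12 and KLF4 at -0.34 ± 0.07. Among plasminogen and matrix genes, 3 of 21 rose and 4 fell, with LAMB3 at 0.32 ± 0.049, PLAT, the tissue plasminogen activator, at -0.45 ± 0.051 and MMP14 at -0.32 ± 0.054. Without carfilzomib replicate 2 the higher count of this list was 5. Of the 11 tubulins 3 rose, with TUBA4A at 0.59 ± 0.059, and 4 fell, with TUBB at 13430, 13150 and 13370 CPM under DMSO and 11890, 12130 and 12140 CPM under carfilzomib (-0.14 ± 0.027). Of the tubulins, 2 were lower without DMSO replicate 3, with only the 6 libraries and in the GC-corrected fit.

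Clock genes are of interest because the series pairs proteasome inhibitors with a cryptochrome stabilizer. Under carfilzomib alone, 2 of 12 tested E-box clock genes rose and 0 fell. NR1D2, the repressor REV-ERB beta, was at 48.4, 45.8 and 48.4 CPM under DMSO and 61.8, 60.4 and 72.02 CPM under carfilzomib (log2 fold change 0.45 ± 0.074, adjusted p = 0.00011). NR1D1, its paralog, was at 11.03, 11.1 and 9.94 CPM under DMSO and 12.8, 15.8 and 17.7 CPM under carfilzomib (log2 fold change 0.53 ± 0.18, adjusted p = 0.0359), and its call was lost without any 1 of 5 of the 6 libraries, carfilzomib replicate 1 being the exception. CRY1 stood at 33.8, 35.5 and 37.5 CPM under DMSO and 38.2, 33.9 and 34.3 CPM under carfilzomib, with overlapping groups (-0.0075 ± 0.079). CRY2 was at 0.25 ± 0.13 and PER3 at 0.21 ± 0.12, and neither passed the test, although CRY2 did in the GC-corrected fit (0.34, adjusted p = 0.0471). ARNTL, the activator BMAL1, was at 4.88, 5.20 and 4.92 CPM under DMSO and 4.57, 5.22 and 4.62 CPM under carfilzomib (-0.05 ± 0.13). Of the ROR and REV-ERB targets, NPAS2, the partner of BMAL1, fell from 80.5, 86.3 and 78.8 to 58.4, 69.7 and 64.5 CPM (-0.35 ± 0.062).

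Set against the shares over all genes (10.1% higher and 11.4% lower), the counts of several lists lay near the background. These were the ATF4, BCL2, NF-kB, metallothionein, plasminogen, cholesterol and clock lists, the mitochondrial chaperones and proteases, and the mitochondrially encoded transcripts. Nothing about those lists as wholes is read from their counts.

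**Figure D3:**
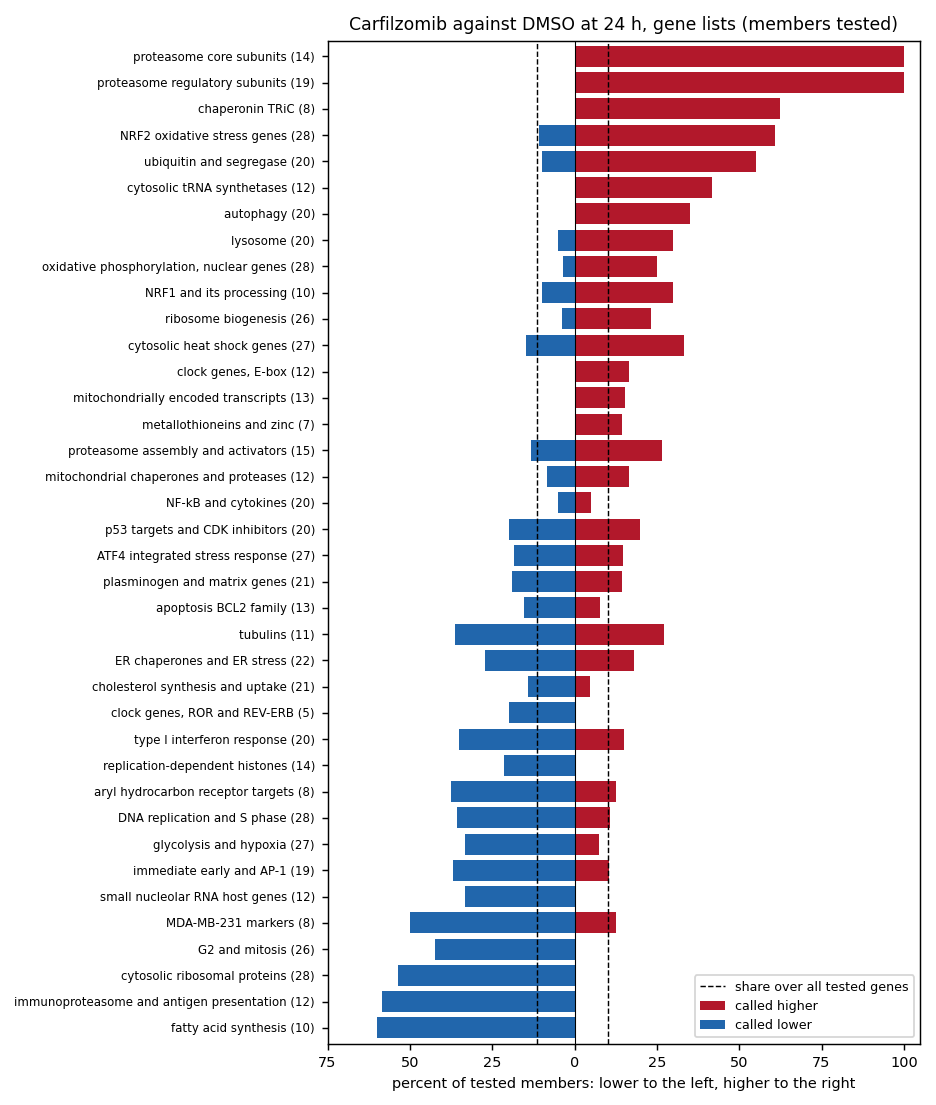
Percent of the tested members of each gene list (members tested in brackets) that were called higher (to the right) or lower (to the left) with carfilzomib against DMSO at 24 h, for lists with at least 5 tested members. Dashed lines give the shares over all tested genes, 10.1% higher and 11.4% lower, and the 2 proteasome lists reach 100% higher.

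Among genes above 5 CPM on average with separate groups, the 12 with the highest log2 fold changes included 6 outside the lists. B4GALNT1, the synthase of the gangliosides GM2 and GD2, was at 3.74, 2.96 and 2.56 CPM under DMSO and 22.4, 23.6 and 21.4 CPM under carfilzomib (log2 fold change 2.86 ± 0.13, adjusted p = 1.91e-13). MLLT11, a small cofactor of T cell factor signalling, was at 2.92, 1.33 and 2.08 CPM under DMSO and 13.04, 15.7 and 16.3 CPM under carfilzomib (2.84 ± 0.18). EGF, the ligand of the epidermal growth factor receptor, was at 1.69, 1.998 and 2.14 CPM under DMSO and 8.47, 6.93 and 9.41 CPM under carfilzomib (2.09 ± 0.19). These 3 genes went from levels under 4 CPM to several times that in each treated library. ACOT13, a mitochondrial acyl-CoA thioesterase, rose from 18.2, 18.3 and 17.04 to 51.1, 55.4 and 58.03 CPM (1.62 ± 0.084), SEL1L3 by 1.83 ± 0.21 and ELAPOR1 by 1.64 ± 0.17. The other 6 were AKR1B10, HSPA6, GLA, HSPB8, MX1 and GABARAPL1.

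The 12 lowest fold changes were smaller than the 12 highest. SLCO4A1, an organic anion transporter, was at 25.1, 22.2 and 21.3 CPM under DMSO and 12.04, 10.3 and 8.74 CPM under carfilzomib (log2 fold change -1.15 ± 0.1, adjusted p = 1.93e-08). NOX5, a calcium-activated NADPH oxidase, was at 11.8, 10.2 and 9.46 CPM under DMSO and 4.71, 4.34 and 5.34 CPM under carfilzomib (-1.14 ± 0.13), and the adhesion receptor ADGRF1 at 17.5, 18.6 and 17.4 CPM under DMSO and 7.04, 8.70 and 10 CPM under carfilzomib (-1.05 ± 0.11). MARCKSL1, an actin regulator, was at 81.2, 82.8 and 84.4 CPM under DMSO and 43.1, 47.5 and 36.4 CPM under carfilzomib (-0.96 ± 0.077). Each of these 4 genes fell in all treated libraries. COL13A1, a transmembrane collagen, fell from 127, 125 and 117 to 64.04, 72.01 and 65.5 CPM (-0.87 ± 0.061). The remaining 7 were MARCHF9 (-0.90), EPPK1 (-0.89), TM7SF2 (-0.88), FAM43A (-0.87), PLXNB1 (-0.87), LZTS3 (-0.84) and NTNG2 (-0.84), and the call of EPPK1 was lost in the GC-corrected fit (-0.62, adjusted p = 0.0601).

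The combination and SHP1705 groups give the carfilzomib comparison in 6 libraries that share none with the 6 above. In them 3912 genes (24.2%) were called, 1909 higher (11.8%) and 2003 lower (12.4%). Of the 3472 genes called with carfilzomib alone, 3256 (93.8%) had the same sign, and 2058 were called with the same sign in both, which is 59.3% of the calls of carfilzomib alone and 52.6% of those in the presence of SHP1705. Called with opposite signs were 11 genes. Of the 205 genes that changed at least 2-fold, 188 had the same sign and 111 were also called. All 33 proteasome subunits were higher again, with a median of 0.84. Genes called in the same direction again included AKR1B10 (4.26), PSMC4 (1.58), GLA (1.79), MX1 (1.50), PSMB9 (-0.69), BIRC5 (-0.62) and CDKN1A (-0.50). Those not called there included TM7SF2 (-0.19), MARCHF9 (-0.37), LZTS3 (-0.082), JUND (-0.062), TAPBP (-0.10), FAS (0.03), CTH (0.13) and BAX (-0.043). EPPK1 (0.096) was not called there either and had the opposite sign. Of the 12 genes with the lowest fold changes, all but TM7SF2, MARCHF9, LZTS3 and EPPK1 were called lower there too.

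The carfilzomib effect differed with SHP1705 present for 78 of 16183 genes (0.482%), and 36 of the 78 were called with carfilzomib alone. The signed difference (log2 fold change with minus without SHP1705) was positive for 34 genes and negative for 44. A negative difference can be a stronger fall, as for HSPA8 and UBB below, so the sign does not tell stronger from weaker effects. None of the 33 proteasome subunits was among the 78. CRY1 stood at 33.8, 35.5 and 37.4 CPM under DMSO, 38.2, 33.9 and 34.3 under carfilzomib, 5.63, 6.41 and 5.51 under SHP1705 and 12.8, 12.9 and 11.8 under both, so its difference between the effects was 1.10 ± 0.13 (adjusted p = 0.000104). NR1D2 rose with carfilzomib alone and fell with it in SHP1705-treated cells, where it was at 24.7, 26.4 and 23.8 CPM without and 17.8, 17.6 and 20.4 CPM with carfilzomib (difference -0.87 ± 0.11, adjusted p = 0.000382). HSPA8 fell in both settings and further with SHP1705, from 1448, 1479 and 1495 to 776, 787 and 837 CPM (difference -0.60 ± 0.069, adjusted p = 0.000104). UBB fell likewise, with log2 fold changes of -0.48 alone and -1.02 with SHP1705 (difference -0.55 ± 0.079), and HSPA6 rose by 2.57 alone and 3.70 with SHP1705 (difference 1.14 ± 0.26, adjusted p = 0.0456). The other genes of lowest p were SLC43A2 (0.74), MICA (0.50), VARS1 (0.44), TSR3 (0.57) and ATAD3B (0.48) with positive differences and TIMP3 (-0.52), DNAJA1 (-0.37) and NDRG1 (-0.37) with negative ones. In the glycolysis and hypoxia list 5 of 27 genes were among the 78, and 19 were lower with carfilzomib in SHP1705-treated cells (median -0.30) against 9 with carfilzomib alone. In the list of G2 and mitosis 2 genes were among the 78, and 20 of 26 were lower in SHP1705-treated cells (median -0.26) against 11. In the GC-corrected fit 17 of the 26 were lower with carfilzomib alone (median -0.18). The gaps between these counts of calls were not tested. The count of 78 depended on single libraries: it was 477 without carfilzomib replicate 2, 170 without SHP1705 replicate 1, and 20 to 29 without any 1 of the DMSO, combination and other SHP1705 libraries.

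**Figure D4:**
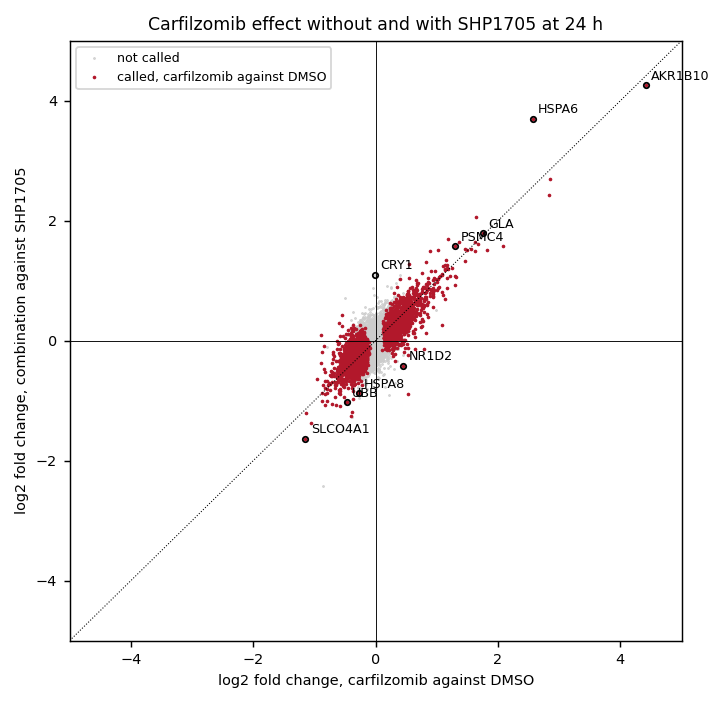
Log2 fold change of carfilzomib against DMSO (horizontal axis) and of the combination against SHP1705 (vertical axis) for genes with a mean of at least 5 CPM over the 6 DMSO and carfilzomib libraries, with genes called for carfilzomib alone in red and the dotted line at equal values. AKR1B10, HSPA6 and GLA lie at the upper right, while CRY1 and NR1D2 lie away from the line.

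The trend with base composition was carried unequally by the 3 carfilzomib libraries. Over 10 equal bins of genes ordered by GC content, the median log2 fold change went from 0.12 in the bin with the lowest GC content (median 37.2%) to -0.19 in that with the highest (median 64.2%), and the share called lower went from 1.73% to 31%. The combination against SHP1705 showed medians between -0.053 and 0.023 over the same bins. Against the DMSO mean, the correlation of the log2 ratio with GC content was -0.24 for carfilzomib replicate 1, -0.19 for replicate 2 and -0.49 for replicate 3. With the trend taken out, 1548 genes were higher and 1498 lower, against 1599 and 1818 of the same genes without this step, and 2268 genes (66.4% of the earlier calls) were called with the same sign in both. Of these, 1642 were also called with the same sign in the combination against SHP1705, 829 higher and 813 lower. The 184 genes with a GC value that changed at least 2-fold were still called in 172 cases. List counts also moved in the GC-corrected fit. The ubiquitin list had 8 higher and 2 lower, autophagy 5 and 1, the tRNA synthetases 5 and 1, and type I interferon 3 and 5. The p53 list had 6 higher and 3 lower, and ribosome biogenesis 9 and 1.

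**Figure D5:**
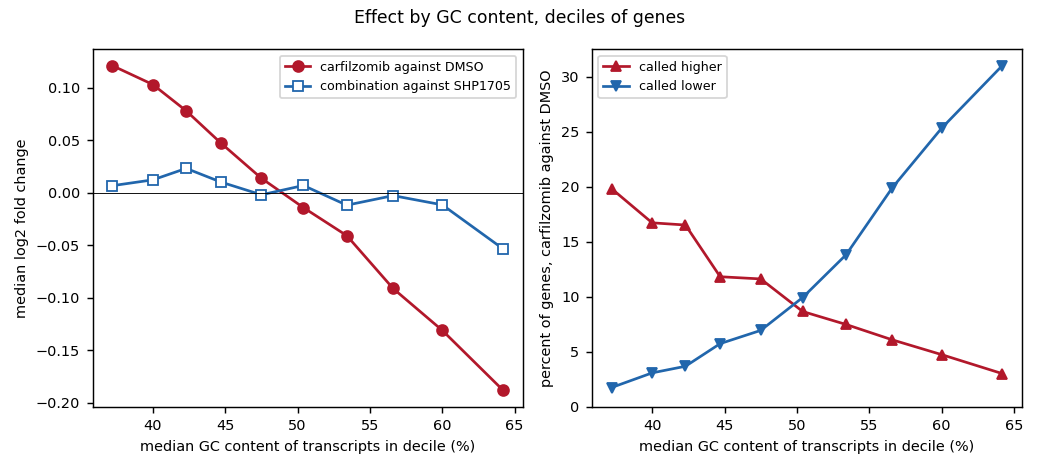
Left, median log2 fold change (vertical axis) against the median GC content of the transcripts in 10 equal bins of genes (horizontal axis) for carfilzomib against DMSO and for the combination against SHP1705. Right, percent of genes called higher and lower with carfilzomib against DMSO in the same bins, where lower calls go from 1.73% to 31% with rising GC content.

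The 8 h libraries could not be read as an earlier stage of the same response. HSPA1A was at 14560, 23610 and 23240 CPM in the libraries labelled DMSO at 8 h and at 792, 726 and 896 CPM in those labelled carfilzomib, and AKR1B10 was likewise higher in the former (8.07, 12.7 and 11.3 CPM) than in the latter (0.771, 0.511 and 0.536 CPM). The other 8 h groups were split within a label in HSPA1A. It was at 19860, 704.7 and 692.9 CPM in the libraries labelled SHP1705 and 891.5, 12020 and 15050 CPM in those labelled as the combination. The DMSO and carfilzomib labels at 8 h were split in clock genes. PER3 was at 8.19, 2.06 and 1.55 CPM in the libraries labelled DMSO and 6.78, 1.26 and 1.69 CPM in those labelled carfilzomib. ARNTL was at 6.42, 15.2 and 14.5 CPM and at 6.21, 24 and 25.9 CPM in the same order. At 24 h HSPA1A and AKR1B10 were higher in the libraries labelled carfilzomib, so their levels at 8 h go against the labels there. As labelled, the difference between the carfilzomib effects at 24 h and 8 h was called for 5687 of 16831 genes (33.8%). The fit behind this count includes these split groups, and the common biological coefficient of variation (edgeR) between libraries of a group was 0.172 in the 8 h table and 0.0672 in the 24 h table. BLVRB, for instance, had 143.6, 141.6 and 126.2 CPM in the carfilzomib libraries and 60.7, 60.6 and 61.2 CPM in the DMSO libraries at 24 h on the scale of the joint fit, against 32.7, 32.2 and 28.9 CPM and 38.9, 41.4 and 34.6 CPM in the libraries so labelled at 8 h. No direction over time was drawn from these values.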

How the data were processed

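Poly(A) RNA of MDA-MB-231 cells was sequenced by the authors, who deposited whole-number counts per gene. Per the submitters' processing notes, Trimmomatic, FastQC, HISAT2 and featureCounts were used with build hg38; no tool version, gene annotation or setting for strand is given in these sources, so reads of overlapping and antisense genes cannot be told apart. Genes with near-identical copies share reads in ways the counts do not show.

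The 12 libraries of the 24 h table (4 groups of 3) were fitted together with edgeR 4.0.16 in R 4.3.3: TMM factors, filterByExpr (minimum count 10), quasi-likelihood tests, Benjamini-Hochberg adjustment over all 16183 genes tested, and calls at an adjusted p under 0.05. Every adjusted p in the text was computed over all genes of its own fit. These were the 15027 genes with a GC value in the GC-corrected fit and 16831 genes in the comparison with 8 h. CPM use the TMM library sizes. The comparison with 8 h was fitted over the 24 libraries of both carfilzomib tables. The MG132 table was not used here. Transcript GC content came from the longest GENCODE transcript of each gene, for 92.9% of the genes tested.

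Alternatives were DESeq2 1.42.0, RLE factors, no filter on low counts, a replicate block, only the 6 libraries, a 2-fold minimum and leaving out each library. The GC-corrected fit, with each library's lowess trend on GC content as an offset, and the comparison of the combination with SHP1705 were added after seeing the data. The edgeR fit of carfilzomib against DMSO at 24 h was tested on simulated counts, and the other comparisons and fits were not.

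The gene lists and the members described were chosen with earlier results of these data known. Named were the 12 highest and 12 lowest fold changes among called genes with separate groups and a mean of at least 5 CPM, up to 5 members of lowest p per list, a fixed set of response genes, and the 6 genes of lowest p per direction for the other comparisons; further list members, such as single proteasome subunits, BAG1 or TXNRD1, were named after their values were seen. At 24 h, libraries of the same replicate number shared little of their deviation from group means (correlations from -0.0833 to 0.111). This does not tell whether a number marks a shared culture or day, and the 8 h libraries were not checked. Total counts set the precision, and the spread between libraries of a group was larger than counting noise for every pair.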

Additional observations from a re-analysis of the deposited data

Results flagged for a closer look

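Differences between 2 comparisons with and without carfilzomib, taken as labelled, passed the test of the difference itself for the genes below. With against without SHP1705 at 24 h, 78 genes passed (edgeR's quasi-likelihood test). The differences in log2 fold change were 1.10 for CRY1, 0.74 for SLC43A2, 0.50 for MICA, 0.44 for VARS1, 0.57 for TSR3 and 0.48 for ATAD3B. They were -0.60 for HSPA8, -0.87 for NR1D2, -0.52 for TIMP3, -0.55 for UBB, -0.37 for DNAJA1 and -0.37 for NDRG1.

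Between 24 h and 8 h, as labelled, 5687 genes passed. The differences were 1.47 for BLVRB, 2.59 for ACOT13, 1.42 for HSD17B4, 3.96 for EGF, 1.62 for PFN2 and 1.96 for BBS4. They were -1.76 for MARCKSL1, -1.31 for COL13A1, -1.52 for SDHAF4, -1.03 for C15orf39, -2.16 for NOX5 and -1.53 for MAMDC4. Since HSPA1A at 8 h goes against the labels, the libraries and the time cannot be told apart in these values. EGF, for instance, was at 12.8, 15.2 and 14.6 CPM under the DMSO label at 8 h and 3.89, 3.61 and 4.14 CPM under the carfilzomib label. These differences therefore need not be differences between carfilzomib effects.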

How the results depend on the processing

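The count of 3472 genes for carfilzomib against DMSO was 3479 with RLE factors, 3393 without a filter, 3543 with DESeq2, 2810 with only the 6 libraries, 3046 with the GC correction and 2493 to 3756 with a library left out, and 205 with a 2-fold minimum. The count of 78 for the effect with against without SHP1705 was 364 without a filter, 324 with DESeq2, 77 with RLE factors, 96 with the GC correction (55 genes shared) and 20 to 477 with a library left out, the cause of which was not tested. The count of 5687 for 24 h against 8 h was 4069 to 5937 with a library left out. The 280 called list members were 224 to 297 with a library left out. With a replicate block the counts were 3548, 91 and 4466. Pairing by replicate number was checked for the 24 h libraries only.

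Values near 0 that changed sign were those of CRY1 (0.00012 with only the 6 libraries, -0.062 to 0.028 with a library left out), TIMP3 (-0.0045 with the GC correction, -0.030 to 0.049 with a library left out) and HSPB1 (0.15 with the GC correction, -0.088 to 0.030 with a library left out), all for carfilzomib against DMSO. Depth limits the precision for genes of few counts, such as EGF.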
